A study of Homo sapiens with 11 samples.

Results

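The widest H3K27ac domains of 92-1 cells were examined, a human uveal melanoma line, before and after exposure to FHT-1015. They were chosen by their width in DMSO and are the 2655 of 53087 broad H3K27ac domains (5.00%) whose width reached the 95th percentile of all widths, 4488.7 bp. These domains are called wide domains here. The cells received DMSO, the solvent control, or FHT-1015 for 4 hours; the dose is not given in the sources used here. FHT-1015 is an inhibitor of SMARCA4 and SMARCA2, the ATPases that drive the BAF chromatin remodelling complexes. Both conditions were profiled by ChIP-seq, the sequencing of DNA bound by an antibody's target, with antibodies to H3K27ac, SMARCA4, MITF, AP-2 and SOX10, and the labels give the AP-2 target as TFAP2A. All libraries come from this 1 line, and each antibody and condition has 1 library. There is therefore no replicate error, no test was run between conditions, and intervals below cover counting error only. A lower ChIP signal from fewer cells carrying a mark and from less mark per cell cannot be told apart in these bulk samples.

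Acetylation of histone H3 at lysine 27 marks active promoters and enhancers. Long unbroken stretches of it, often called super-enhancers or stretch enhancers, tend to lie over genes that define the identity of a cell. In pigment cells SOX10 and MITF are the transcription factors that specify and maintain the melanocyte lineage, and TFAP2A acts with them at pigment genes. BAF complexes move or eject nucleosomes and so keep enhancers open to such factors.

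Promoters of pigment genes illustrate what the wide domains hold. Of 55 genes on the lists of pigment genes, lineage transcription factors and receptors, 44 had an entry in the RefSeq promoter table. For 21 of them the promoter window lay whole inside a wide domain and shared bases with a SOX10 or MITF peak in DMSO. The first 6 in list order that meet this rule are shown as the 250 bases before the listed start (RefSeq, GRCh38.p14), 5′ to 3′ on the strand of the gene. Capitals mark the letters CATGTG and CACGTG (E-box cores that MITF can bind), ACAAAG and ACAATG (SOX motifs) and GCCNNNGGC (AP-2), read on both strands, so that CACATG is CATGTG on the other strand.
TYR, chr11:89177625-89177874, plus strand: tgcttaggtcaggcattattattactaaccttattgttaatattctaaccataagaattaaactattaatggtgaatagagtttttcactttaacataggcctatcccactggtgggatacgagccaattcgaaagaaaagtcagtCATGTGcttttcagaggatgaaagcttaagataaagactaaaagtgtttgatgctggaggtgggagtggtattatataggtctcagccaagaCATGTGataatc
TYRP1, chr9:12693135-12693384, plus strand: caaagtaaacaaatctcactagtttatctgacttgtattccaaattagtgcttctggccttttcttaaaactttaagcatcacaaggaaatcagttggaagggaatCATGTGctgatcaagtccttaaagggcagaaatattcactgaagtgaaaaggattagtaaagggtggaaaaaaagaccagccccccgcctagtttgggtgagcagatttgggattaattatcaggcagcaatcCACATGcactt
MLANA, chr9:5890639-5890888, plus strand: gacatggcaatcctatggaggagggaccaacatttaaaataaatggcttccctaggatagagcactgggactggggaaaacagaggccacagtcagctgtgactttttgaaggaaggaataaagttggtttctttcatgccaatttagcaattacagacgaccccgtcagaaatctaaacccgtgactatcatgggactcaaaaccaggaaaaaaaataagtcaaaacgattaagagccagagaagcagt
GPR143, chrX:9765848-9766097, minus strand: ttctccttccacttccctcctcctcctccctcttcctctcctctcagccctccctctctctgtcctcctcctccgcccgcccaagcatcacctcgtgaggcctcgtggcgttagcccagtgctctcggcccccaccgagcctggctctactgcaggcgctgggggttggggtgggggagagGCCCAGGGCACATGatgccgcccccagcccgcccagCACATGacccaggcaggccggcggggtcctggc
MLPH, chr2:237487001-237487250, plus strand: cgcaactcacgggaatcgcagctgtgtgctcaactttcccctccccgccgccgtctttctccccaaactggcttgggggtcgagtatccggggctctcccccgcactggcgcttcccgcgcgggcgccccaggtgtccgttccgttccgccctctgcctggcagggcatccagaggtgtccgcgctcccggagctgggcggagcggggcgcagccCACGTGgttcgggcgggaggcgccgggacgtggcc
GPNMB, chr7:23246525-23246774, plus strand: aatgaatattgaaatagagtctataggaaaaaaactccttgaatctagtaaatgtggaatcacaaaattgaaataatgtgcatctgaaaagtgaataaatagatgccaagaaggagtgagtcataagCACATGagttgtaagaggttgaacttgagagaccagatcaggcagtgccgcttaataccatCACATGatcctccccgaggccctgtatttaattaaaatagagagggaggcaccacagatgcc
TYR, TYRP1, GPR143 and GPNMB each carried 2 copies of CATGTG, and MLPH carried 1 copy of CACGTG. The AP-2 motif of GPR143 overlaps its first E-box. No motif of the search was found in the MLANA window. Over 35116 promoter windows of the same length, CATGTG was in 9.42%, CACGTG in 6.34%, ACAAAG in 13.7%, ACAATG in 9.29% and GCCNNNGGC in 19.8%. In the 1671 windows that lie in wide domains the shares were 7.84%, 8.56%, 10.8%, 6.10% and 25.7%, in the same order. These matches are letters in a window and do not show binding.

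The peaks over the promoter entries of these 6 genes differed in what was left after FHT-1015. An entry is longer than the 250 bases printed, so a peak may lie outside those bases. Strength is given as the authors' −log10 p of the peak. At TYR, the rate-limiting enzyme of melanin synthesis, SOX10 had a value of 44.7 in DMSO and 7.29 in FHT-1015, and MITF 197 and 64.8. At TYRP1, a melanosomal enzyme of the same pathway, SOX10 was at 33.3 and 30.7 and MITF at 140 and 120. At MLANA, a melanosome protein, the SOX10 peak of 68.5 and the AP-2 peak of 7.23 had no counterpart in FHT-1015, while MITF went from 240 to 29.5. At GPNMB, a melanosomal membrane glycoprotein, SOX10 went from 107 to 60.6 and MITF was at 301 and 304. MLPH, which links melanosomes to myosin, had a SOX10 peak of 11.4 in DMSO and none in FHT-1015. SOX10 and MITF peaks in DMSO chose these entries, so their values are a description of single genes. Over all 21 promoter entries, AP-2 peaks lay on 19 in DMSO and 19 in FHT-1015, and SMARCA4 peaks on 20 and 20.

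Wide domains had a median width of 5.782 kb and a largest width of 81.065 kb. They held 18.3 Mb, which was 22.6% of the 81.0 Mb acetylated in DMSO. At the threshold, the 3 narrowest wide domains were each 4489 bp, near OCIAD1, in VEGFC and at PDE4D, and 92.6%, 99.8% and 91.6% of them was acetylated in FHT-1015. The 3 widest domains outside the rule measured 4488, 4488 and 4487 bp, and 80.2%, 98.9% and 74.5% of them was.

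Wide domains overlapped 1929 of 20033 protein-coding genes (9.63%), and covered 150 genes whole. No protein-coding gene lay in 611 domains, 1 gene lay in 1694, and 2 or more lay in 350, with up to 23 genes in 1 domain. A start listed in the promoter table, which has entries for 79.1% of these genes, lay in 797 domains. A further 232 crossed a gene boundary with no listed start, and the remaining domains with a gene lay wholly inside it. Of the 50432 other domains, 7072 held a listed start and 1768 crossed a gene boundary with no listed start. Another 24057 lay wholly inside a gene, and 17535 held no protein-coding gene. Domains with a listed start thus made up a larger share of the wide set, and those without a gene a smaller one. These counts were not adjusted for width. Of all wide domains, 540 (20.3%) were within 10 kb of another. Several loci were acetylated in a series of wide domains, and 342 genes had at least 2. CDKAL1, a tRNA-modifying enzyme, had 11 over 88.7 kb. MITF had 8 over 78.9 kb, as did the BAF subunit gene ARID1B over 65.3 kb and MAML3, a coactivator of Notch signalling, over 59.6 kb. SOX6, a SOX family transcription factor, had 7, and INPP4B, a phosphoinositide phosphatase, had 6 over 112 kb, the longest covered length among these genes. On numbered chromosomes wide domains made up between 3.84% of the domains (chromosome 3) and 6.83% (chromosome 17).

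The cell identity given by the label could be checked on these lists, which were chosen with earlier results of these data known. Any H3K27ac domain lay over 67% of all protein-coding genes and a wide one over 9.63%. For pigment genes it was 18 of 18 and 13, and for housekeeping genes 10 of 10 and 7, so a wide domain was about as frequent over both lists. Among 27 lineage transcription factors, 26 had a domain and 15 a wide one. Of 17 markers of other cell types (epithelial, stromal, endothelial, blood, liver and neuronal genes), 9 had a domain and 1, the epithelial cadherin CDH1, a wide one.

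After FHT-1015, 76.8% of the length of wide domains was still acetylated, and 4.27 Mb was no longer in the broad list. All other domains kept 59.5% of their length, and those between the 90th and 95th percentile of width kept 73.1%. The share by domain had a median of 82.6% and quartiles of 59.0% and 95.7%. Less than 50% was left in 473 wide domains (17.8%, 95% Wilson interval 16.4 to 19.3), against 50.7% of all domains. At least 90% was left in 1004 (37.8%), against 25% of all domains. In the 90th to 95th percentile of width these shares were 19.3% (17.8 to 20.8) and 33.1%, close to those of wide domains. In 324 of the 2655 wide domains the whole length was still acetylated, a share slightly below the 13.1% of all domains. In 7 none of it was, against 37.5% of all domains. Of the 2654 domains in the 90th to 95th percentile of width, 285 kept the whole length and 27 kept none. The relative depth of the H3K27ac libraries, FHT-1015 over DMSO, was 1.05. Since DMSO widths chose these domains, their own widths and the gradient over width are descriptions. The median −log10 p of domains in DMSO was 33.8 in the wide set and 4.86 in all others. In the 90th to 95th percentile of width it was 26.6. The part of this strength in the shares still acetylated was not tested.

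With domains of every position relative to genes pooled, the share left rose with width through every class examined. It was 32.3% of the length below the median width, 58.6% from the 50th to the 75th percentile, 69.8% up to the 90th, 74.3% from the 95th to the 99th and 81.3% above that. The median −log10 p of the domains in DMSO rose with width too. It was 3.23 below the median width and 41.0 above the 99th percentile, so width and strength were not separated here. Choosing the widest 5% in FHT-1015 instead gave 2057 domains, and 92.4% of their length was acetylated in DMSO. Of these, 74.3% shared bases with a wide DMSO domain, whereas 57.4% of wide DMSO domains shared bases with one of them.

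**Figure D1:**
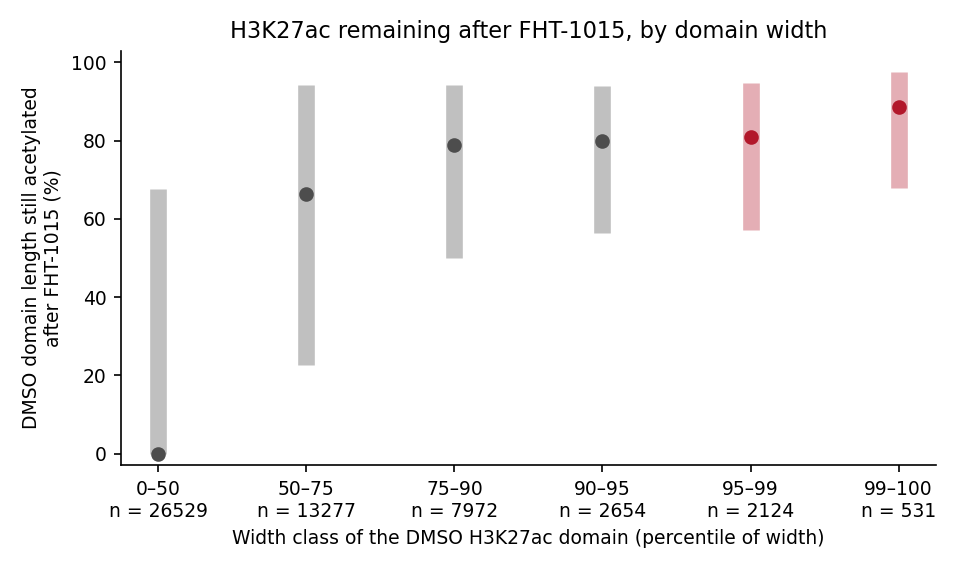
Share of each DMSO H3K27ac domain still acetylated in FHT-1015 (vertical axis, %) by percentile class of domain width (horizontal axis). Points are medians over domains and bars run from the lower to the upper quartile; the medians rise from 0 in the narrowest class to 88.6% in the widest, and red marks the wide domains.

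Losses were most frequent at the edges of wide domains and away from listed gene starts. Within 0.25 kb of an edge 38.8% of bases were still acetylated, between 1 and 2 kb 81.8%, and deeper than 2 kb 87.8%. Within 0.5 kb of a listed start 97.2% of bases were still acetylated, against 74.8% at 3 to 5 kb in the same domains. With bases near an edge left out, these were 98.1% and 86.1%. By position, domains with a listed start kept 84.5% of their length, those crossing a boundary with no listed start 75.7%, those outside genes 74.7% and those inside a gene 71.9%. Less than 50% was left in 5.90% of the domains with a listed start and in 24.6% of those inside a gene. Outside the wide set the gap by position was larger, with 87.8% of the length kept in domains with a listed start and 47.7% in those inside a gene. Domains crossing a boundary with no listed start kept 78.6% there, and those outside genes 49.2%. Domains with a listed start or crossing a boundary thus kept less in the wide set than outside it, and the other positions kept more.

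**Figure D2:**
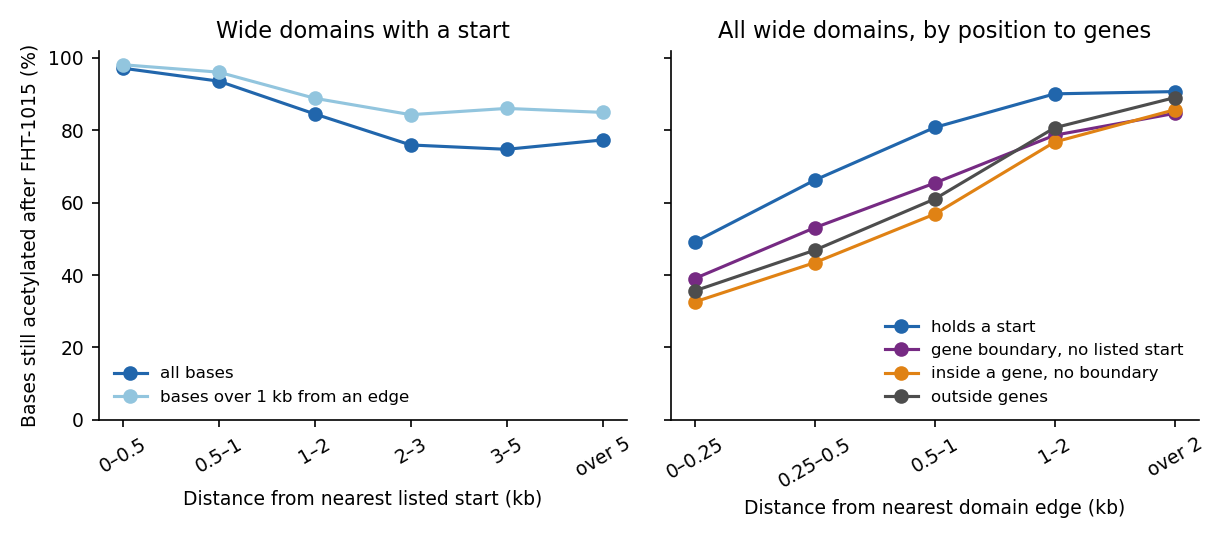
Share of bases still acetylated in FHT-1015 (vertical axes, %) in wide domains, by distance from the nearest listed gene start in domains that hold one (left, kb) and by distance from the nearest domain edge for 4 positions relative to genes (right, kb). The right panel rises from the edge inward for every position, and the left panel falls from 97.2% at the start to 74.8% at 3 to 5 kb over all bases.

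Change in shape went both ways. A single FHT-1015 domain remained in 1774 wide domains (66.8%), and 874 (32.9%) were divided into 2 or more, with up to 10 pieces at FAM53B. The same shares were 58.8% and 3.63% of all domains, and 85.9% and 13.1% in the 90th to 95th percentile of width. FHT-1015 acetylation ran past the DMSO boundaries in 1097 wide domains (41.3%), by a median of 327 bp, a share near the 36.3% of all domains and the 39.6% of the 90th to 95th percentile. The 2 longest such stretches joined neighbouring wide domains, at GNAI1, where a 6.907 kb domain became part of a stretch reaching 53.4 kb further, and at the 5.141 kb domain of PAX3 (46.6 kb). In all, 23 FHT-1015 domains spanned 2 wide DMSO domains. METTL9, a histidine methyltransferase, and CAPZA1, an actin capping subunit, showed the next longest, of 33804 and 21986 bp. These too joined neighbouring wide domains, of 28.407 kb at METTL9 and 12.451 kb at CAPZA1. All 4 lengths therefore include bases that were already acetylated in DMSO.

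SOX10 peaks inside wide domains, counted by their summits, numbered 8617 in DMSO and 4687 in FHT-1015, a ratio of 0.544. MITF numbered 6393 and 5001 (0.782), AP-2 7349 and 6281 (0.855), and SMARCA4, the target of the compound, 11211 and 9714 (0.866). SOX10 thus had the lowest ratio, as it did in all other domains (0.330). Among peaks of −log10 p at least 10 the SOX10 ratio was 0.289, and among peaks of fold at least 5 it was 0.236, whereas the SMARCA4 ratio at that fold was 1.11, so the direction for SMARCA4 depends on which peaks are counted. The relative depth, FHT-1015 over DMSO, was 1.14 for SOX10, 0.854 for MITF, 0.960 for AP-2 and 0.918 for SMARCA4. Over listed peaks, with the very strongest left out, the median summit held 14 reads in DMSO and 8 in FHT-1015 for MITF. It held 17 and 14 for AP-2, and 15 and 14 for SMARCA4. The SOX10 estimates in FHT-1015 rest on a sample of its weaker peaks, so summit reads are not compared for SOX10. Outside all domains the MITF list had 1.28 times as many peaks in FHT-1015 as in DMSO. The part of depth and of the reach of each list in these ratios was not tested. In DMSO wide domains held 8.34% of all SOX10 peaks, 7.14% of MITF, 5.15% of AP-2 and 11.0% of SMARCA4 peaks. Per 10 kb they were sparser than other domains, at 4.70 against 6.32 SOX10 peaks and 6.11 against 7.04 SMARCA4 peaks.

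A DMSO peak was counted as retained where any base of it lay in a peak that the same antibody gave in FHT-1015. Over the whole list 18.3% of SOX10 peaks, 36.2% of MITF, 54.9% of AP-2 and 52% of SMARCA4 peaks were. Inside wide domains it was 41.6% of SOX10 peaks (95% Wilson interval 40.6 to 42.7), 65.8% of MITF (64.65 to 66.97), 74.7% of AP-2 (73.7 to 75.7) and 75.1% of SMARCA4 (74.2 to 75.8). Where summits had to lie within 200 bp of each other, SMARCA4 retention was 48.0%, below MITF (60.1%) and AP-2 (63.1%) and above SOX10 (34.2%). The wide domains exceeded all other domains by 13.9 points for SOX10 (95% Newcombe interval 12.8 to 15.1), 11.7 for MITF (10.37 to 12.95), 6.24 for AP-2 (5.12 to 7.34) and 3.16 for SMARCA4 (2.25 to 4.06). Matched within 10 classes of DMSO peak strength, the differences were 14.1, 8.36, 6.51 and 3.26 points. With only peaks of −log10 p at least 10 in both lists they were 15.5, 21.9, 8.11 and 15.2 points. Peaks outside H3K27ac domains were retained least, at 7.96% for SOX10, 22.9% for MITF, 48.8% for AP-2 and 27.6% for SMARCA4.

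Against the next class of width, the 90th to 95th percentile, little of this difference was left. SOX10 peaks were retained 2.35 points more often in wide domains (0.66 to 4.03). MITF differed by -0.82 points (-2.67 to 1.04) and AP-2 by -0.98 (-2.56 to 0.62), intervals that include 0. SMARCA4 peaks were retained 4.95 points less often in wide domains, a difference of -4.95 (-6.20 to -3.68). Peaks of a domain and of a library are not independent, so these intervals are narrower than the error between cultures would be.

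**Figure D3:**
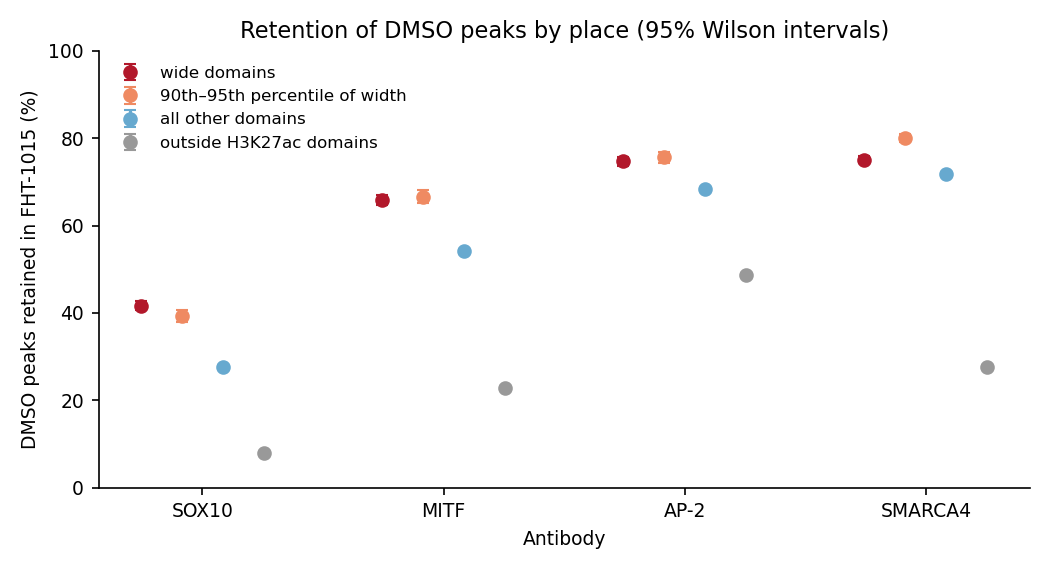
Share of DMSO peaks retained in FHT-1015 (vertical axis, %) for 4 antibodies (horizontal axis) in wide domains, in domains of the 90th to 95th percentile of width, in all other domains and outside domains. Bars are 95% Wilson intervals over peaks; for SOX10 the points fall from 41.6% in wide domains to 7.96% outside domains.

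Retention was higher where more acetylation was left, and spanned the widest range for SOX10. Where less than 50% of a wide domain was still acetylated, 10.1% of SOX10 peaks were retained, and the number went from 1154 to 136. In domains with 50% to under 90% left it was 34.5%, and with at least 90% left 57.5%, where the number went from 3893 to 2961. MITF retention in the 3 classes was 45.8%, 64.4% and 74.6%, and that of AP-2 50.2%, 74.98% and 84.6%. SMARCA4 had the narrowest span, with 62.7%, 76.5% and 77.9%. Distance from a listed start separated the peaks as well. Within 1 kb of a start inside wide domains 61.3% of SOX10 peaks were retained, against 37.9% further away. The same pair was 76.8% and 63.7% for MITF, 93.0% and 70.8% for AP-2 and 89.9% and 72.7% for SMARCA4. In other domains SOX10 retention was 49.3% near starts and 20.0% away from them.

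**Figure D4:**
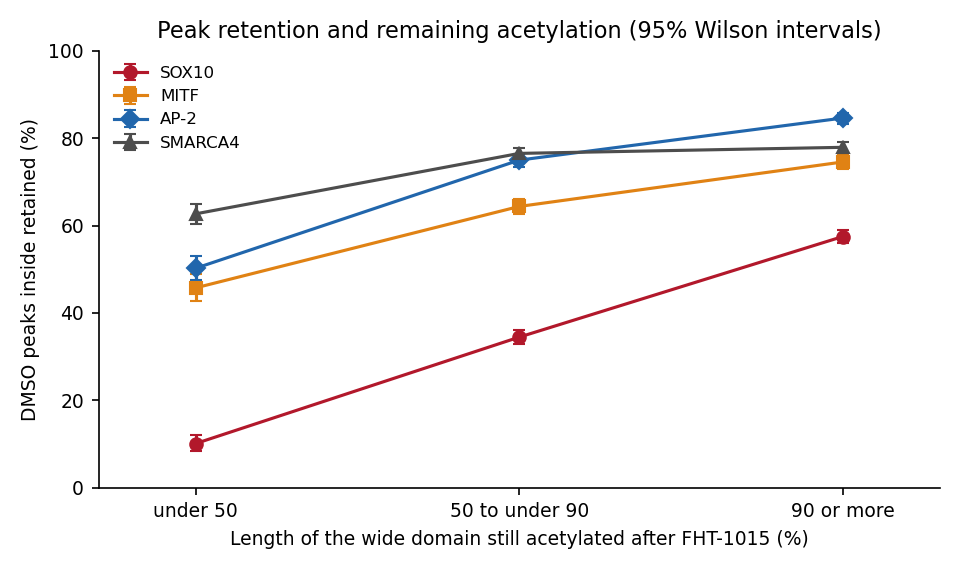
Share of DMSO peaks inside wide domains retained in FHT-1015 (vertical axis, %) by the share of the domain still acetylated (horizontal axis, 3 classes), with 95% Wilson intervals over peaks. SOX10 rises from 10.1% to 57.5%, and SMARCA4 from 62.7% to 77.9%.

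The median −log10 p in DMSO was 7.15 for lost SOX10 peaks and 23.9 for retained ones. Among SOX10 peaks that reached 10 in DMSO, 57.4% were retained in wide domains and 39.6% in all other domains. In the 90th to 95th percentile of width it was 54.7%, close to the share in wide domains. The strongest lost SOX10 peak in a wide domain lay in SH3PXD2A, the gene of a podosome scaffold, at a −log10 p of 216. PLEKHA7, the gene of a junction protein, lost both a MITF peak of 299 and a SMARCA4 peak of 49.5, and 13.1% of its domain was left. Inside wide domains, peaks present only in FHT-1015 numbered 646 for SOX10, and 2 of them reached a −log10 p of 10. They numbered 731 for MITF, 841 for AP-2 and 2044 for SMARCA4, of which 22, 50 and 41 reached it. Such peaks made up 13.8% of the FHT-1015 SOX10 peaks in wide domains, 14.6% of MITF, 13.4% of AP-2 and 21.04% of SMARCA4 peaks. Over the whole FHT-1015 lists these shares were 38.5%, 64.8%, 34.4% and 45.4%, in the same order. In all other domains they were 7.65%, 15.4%, 9.24% and 22.6%.

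Counted by domain, the median went from 3 SOX10 peaks to 1, and from 4 SMARCA4 peaks to 3, and stayed at 2 for both MITF and AP-2. SOX10 peaks were fewer in FHT-1015 in 1922 of the 2650 wide domains that had one (72.5%), close to the 76.6% of all domains. Every SOX10 peak was lost in 736 (27.8%), against 64.3% of all domains. MITF peaks were fewer in 1257 domains (48.3%, against 49.9%), and all were lost in 259 (9.95%, against 38.6%). AP-2 peaks were fewer in 1163 (44.4%, against 40.3%), and all were lost in 222 (8.47%, against 26.9%). SMARCA4 peaks were fewer in 1330 (50.4%, against 43.1%), and all were lost in 52 (1.97%, against 22.4%). Wide domains hold more peaks each than other domains, and these shares were not adjusted for that. All 4 proteins had a peak in 2557 wide domains in DMSO (96.3%) and in 1805 in FHT-1015 (68.0%). Over all domains these shares were 37.8% and 16.2%, and in the 90th to 95th percentile of width 89.3% and 53.1%.

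Of the 10 widest domains, 9 kept at least 90% of their length, and SOX10 peaks were fewer in FHT-1015 in 9. The widest, at chr2:222193060-222274124 over PAX3, a neural crest transcription factor that activates MITF, was 99.6% acetylated in FHT-1015. Its SOX10 peaks went from 38 to 14, its MITF peaks from 18 to 13 and its AP-2 peaks from 20 to 17, while SMARCA4 peaks went from 27 to 32. The 52.464 kb domain of GNAI1, an inhibitory G protein subunit, kept 99.5% and went from 25 SOX10 peaks to 11, with MITF peaks at 12 and 17. The 41.014 kb domain of TYRP1 kept all of its length while its SOX10 peaks numbered 26 and 27, with 20 of the DMSO peaks retained. RAB38, a small GTPase of melanosome cargo transport, kept 99.1% with 21 and 14 SOX10 peaks, and INPP4B kept 100% with 15 and 8. SOS1, an exchange factor for Ras, kept 99.9% with 16 and 8. FAM53B was the exception among the 10, with 53.3% of 42.315 kb left in 10 pieces and SOX10 peaks at 12 and 4. Domains near ZEB2 and near PTTG1, also among the 10, kept 97.3% and 100%. Here "near" gives only the nearest protein-coding gene. The domain near ZEB2 starts at chr2:145010299, over the long noncoding RNA gene TEX41, whereas ZEB2 itself ends at chr2:144520119.

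**Figure D5:**
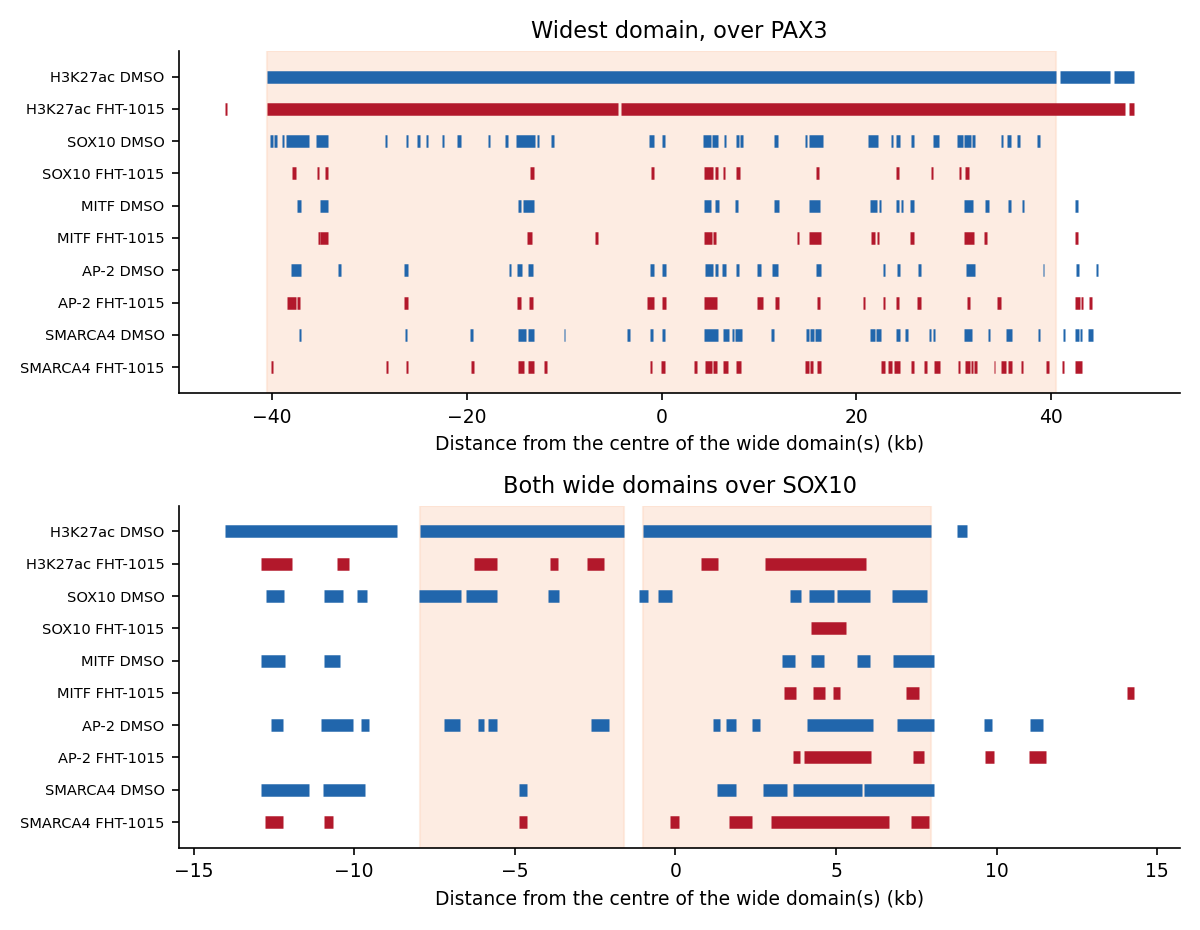
Peaks of each antibody in DMSO (blue) and FHT-1015 (red) along the widest domain, over PAX3, and along both wide domains that overlap SOX10 (shaded), with distance from the centre of the shaded span in kb on the horizontal axis. H3K27ac covers 99.6% of the PAX3 domain in FHT-1015 while SOX10 peaks go from 38 to 14, whereas over SOX10 41.1% and 23.5% of the domains is left.

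Of the 7 wide domains with no acetylation left, 5 are named here. Those over ITLN2, a lectin gene, over MSI2, an RNA-binding protein, and near SLC39A11, QDPR and ALDH1B1 measured between 4930 and 7018 bp, and held 1 or 2 SOX10 peaks before and 0 after the compound. Among the 100 widest domains the least was left at SH3PXD2A, with 17.4% of 16.436 kb and SOX10 peaks at 4 and 0. There followed SLC6A17, a vesicular amino acid transporter (28.8%), ENTPD6, a nucleotidase (29.0%), the readthrough locus TBC1D7-LOC100130357 (39.8%) and a second domain of MSI2 (41.4%). SMARCA4 peaks there numbered 8 and 9 for SH3PXD2A, 8 and 4 for SLC6A17, 8 and 5 for ENTPD6, and 11 and 7 for each of the other two.

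After PAX3 and GNAI1, the largest falls in SOX10 number were at LMNA, the lamin A gene, from 15 to 3, at TBC1D7-LOC100130357, from 13 to 3, and at EXTL1, a glycosyltransferase gene, from 10 to 0. Acetylation left there was 66.8%, 39.8% and 46.1%. The largest rises were near ZEB2, from 10 to 17, near GNAI1, from 11 to 17, at ZC3H13, a subunit of the m6A writer, from 13 to 18, at the histone gene H3C4, from 4 to 9, and near SLC17A6, from 4 to 9. These 5 domains kept between 95.7% and 100% of their length. The one near ZEB2 starts at chr2:144913500, again over TEX41 and outside ZEB2 itself. BAHCC1 had 21 and 18 SOX10 peaks, and its 15 MITF peaks and 16 AP-2 peaks in DMSO were among the 3 highest numbers of any wide domain.

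The lineage transcription factors spanned a wide range. Their 36 wide domains kept a median of 96.9%, from 23.5% to 100%, and 3 kept less than 50%. The 8 domains of MITF kept between 91.9% and 100%, while its SOX10 peaks went from 33 to 18, its MITF peaks from 12 to 8 and its SMARCA4 peaks from 46 to 38. TFAP2A kept 100% of 21.7 kb, with SOX10 peaks at 17 and 15 and AP-2 peaks at 12 and 11. ZEB2, an E-box binding repressor, kept 99.9% with SOX10 peaks at 11 and 8. SOX10 itself stood at the other end, with 41.1% and 23.5% of its 2 domains left and its own peaks going from 6 to 1 and from 3 to 0. Both of those domains also overlap the annotation of POLR2F, a subunit of RNA polymerases. SMARCA4 peaks over SOX10 numbered 5 in both conditions. ETV4, an ETS factor, kept 49.3% and went from 5 SOX10 peaks to 0, in a domain that also overlaps DHX8.

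Pigment genes kept a median of 89.2% over 17 wide domains, and their SOX10 peaks numbered 113 and 62 while MITF numbered 66 and 56. TYR kept 94.9% (SOX10 peaks 6 and 2), PMEL, which builds the melanosome fibrils, 89.2% (10 and 4), and MLANA 83.2% (9 and 1). The lowest genes were MLPH at 35.5% (3 and 0) and SLC45A2, a melanosomal transporter, at 57.9% (3 and 1). The PMEL domain also covers CDK2, and the MLANA domain also overlaps BRD10. Among receptors, 5 of 10 genes had wide domains, with a median of 89.0%. EDNRB, the endothelin receptor of melanocytes, kept 98.2%, whereas the 2 domains of MET, the receptor for hepatocyte growth factor, kept 27.1% and 56.8% and went from 8 SOX10 peaks to 0 while SMARCA4 numbered 6 and 9.

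Genes of the Gq pathway, which is activated by mutation in most uveal melanomas, had wide domains at 7 of 16, with a median of 84.7%, and their SOX10 peaks numbered 35 and 16 and their MITF peaks 32 and 16. RASGRP3, the Ras exchange factor of that pathway, kept 93.8% over 3 domains, with SOX10 peaks at 11 and 10. PLCB4, a phospholipase C, kept 47.1% with 2 and 0, and PRKCD, a protein kinase C, 53.6% with 4 and 0. Among 13 targets and feedback regulators of MAPK signalling, 9 had wide domains with a median of 92.8%, and SOX10 numbered 51 and 42. SPRY2, SPRED1 and MYC kept 100%, and IER3 kept 41.6% in a domain that also overlaps FLOT1. Of the AP-1 genes JUNB kept 98.8%, in a domain that also overlaps HOOK2, and JUND 78.0%.

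Cell cycle and survival genes had wide domains at 7 of 13, with a median of 89.2%. CDK6 kept 99.3% over 3 domains, and CDKN1A, the inhibitor p21, 100%. The apoptosis inhibitors were lower, with 76.8% over 4 domains for BCL2 and 31.9% over 2 for BCL2L1, whose SOX10 peaks numbered 5 and 1. BAF subunit genes had 15 wide domains over 7 of 24 genes, with a median of 95.7% and none under 50%. The 7 housekeeping genes with a wide domain kept between 76.4% (GAPDH) and 99.4% (EEF1A1), and their SOX10 peaks numbered 19 and 21. The GAPDH domain also overlaps IFFO1 and NCAPD2. The single domain over a marker of another cell type, CDH1, kept 62.9%, with SOX10 peaks at 4 and 1. The SOX10 ratio over all wide domains was 0.544. It was lower over receptor (0.364) and Gq pathway genes (0.457) and at CDH1 (0.25). It was 0.549 over pigment, 0.578 over lineage and 0.597 over BAF genes. Cell cycle and survival (0.755), MAPK (0.824), AP-1 (0.833) and housekeeping genes (1.11) had higher ratios. Each rests on few domains.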

How the data were processed

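ChIP-seq was done on 11 samples of 92-1 cells, of which 10 with 1 of 5 antibodies; the DMSO input was not analysed here. The submitters' processing notes name BWA, SAMtools, Picard and MACS2 and the build hg38; versions and settings are not given in the sources used here. The authors deposited peak lists: a broad list for H3K27ac and a narrow list for each antibody. Per peak, the deposited lists give a score, a fold enrichment (a ratio over background), a −log10 p and a −log10 q, used here only to describe, rank or filter peaks. Depth differences between libraries, estimated from the deposited fold and −log10 p values, are given as ratios.

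Python 3.11.15 with pandas 2.3.3 and numpy 2.4.6 was used. Repeated rows were counted once. Domains were chosen by width, and bases in common with the FHT-1015 broad list counted as still acetylated. Genes and promoters come from RefSeq tables of GRCh38.p14. A listed start is a gene start in the promoter table. A peak was inside a domain by its summit, and retention needed 1 shared bp. Shares have 95% Wilson and differences 95% Newcombe intervals, and matched differences were taken within 10 classes of DMSO −log10 p. The interval and matching functions were tested on simulated data. Domains were named by the protein-coding gene with most bases in them, or else the nearest. Those named are the 10 widest, the extremes in acetylation left, SOX10 peak number, its change, other peak numbers and extension, those beside the threshold, and those over listed genes in list order. The members and lists were chosen with earlier results of these data known. Other width thresholds, peak filters and definitions of inside and retained were tried. Some domains and peaks that the naming rule takes in are not reported here.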

Additional observations from a re-analysis of the deposited data

How the results depend on the processing

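Of 69 recomputed values 25 stayed within the counting error of the reported value (or, for counts, within 1.5 times), 40 moved beyond it and 4 turned direction. The cause was not tested. For the share of length still acetylated, the limits were computed as if it were a share of 2655 domains. A length has no such counting error, so for that result they are only a yardstick. The turned values were the MITF, AP-2 and SMARCA4 differences in retention against the 90th to 95th percentile of width (-0.82, -0.98 and -4.95 points) and the SMARCA4 ratio for peaks of fold at least 5 (1.11); the SOX10 difference fell to 2.35 points. The length still acetylated was 81.3% for the widest 1%, 71.7% with the FHT-1015 narrow list, 70.3% for FHT-1015 domains of −log10 p at least 10, 72.3% with domains closer than 10 kb joined, and 92.4% in the reverse choice. Domains under 50% acetylated numbered 985 in the widest 10% and 72 in the widest 1%, and genes 3529, 474 and, covered whole, 150. With peaks of −log10 p at least 10 the ratios were 0.289 (SOX10), 0.700 (MITF), 0.750 (AP-2) and 0.955 (SMARCA4), retention was 27.6% (SOX10), 70.0% (AP-2) and 72.7% (SMARCA4), and the differences were 15.5, 21.9, 8.11 and 15.2 points in the order SOX10, MITF, AP-2, SMARCA4. At fold 5 the ratios were 0.236, 0.692 and 0.722 for SOX10, MITF and AP-2. SOX10 ratios were 0.525 and 0.583 in the widest 10% and 1%. Retention fell to 27.8%, 55.4%, 67.1% and 65.6% (same order) with 50% of the peak covered, and to 34.2%, 60.1%, 63.1% and 48.0% with summits within 200 bp, which puts SMARCA4 below MITF and AP-2. In the widest 1% it was 44.2% (SOX10), 75.7% (AP-2) and 73.8% (SMARCA4), and in the widest 10% 76.9% (SMARCA4). Matched on strength, the MITF difference was 8.36 points. No paired analysis was possible because each antibody has 1 library in each condition. Peak lists hold only what passed the caller, so an unlisted peak may be a weak one.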
